A study of Mus musculus with 22 samples.

Results

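The genes of insulin granule docking and exocytosis were examined as a group of 36, chosen by symbol for their roles in bringing hormone granules to the plasma membrane and fusing them with it. All 36 symbols were found among the 57010 genes of the expression table, each on a single row. Polyadenylated RNA had been sequenced from isolated pancreatic islets, the clusters of hormone-secreting cells of the pancreas, of 22 male mice aged 5.5 weeks, with 1 mouse per library; the series design gives that age, and the column names a range of 5 to 6 weeks. The mice were wild type (WT) or heterozygous (Het) for S64F, a serine-to-phenylalanine change in MAFA, the transcription factor of mature beta cells that activates the insulin genes. The background labelled C57 held 5 WT and 6 Het mice, and so did the background labelled Mixed, whose strains the labels do not give. Het mice keep 1 WT Mafa allele, and the labels name no treatment in any group. The S64F change is known in people from families with insulin-secreting tumours or diabetes, and the design asks how it alters islet RNA in males and whether that depends on the background.

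Insulin is stored in dense-core granules. The GTPases of the Rab3 and Rab27 families and their effectors carry granules to the plasma membrane and tether them there, and the Munc13 and CAPS proteins prime them for release. The SNARE proteins on granule and plasma membrane then zip together and fuse the membranes when synaptotagmins and Doc2b bind calcium, and NSF with alpha-SNAP takes the spent SNARE complexes apart. This is the last step of glucose-stimulated insulin secretion, and other islet endocrine cells use much of the same machinery.

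Levels were given as TPM, a transcript abundance relative to the library's total and corrected for transcript length, so that levels of different genes can be set side by side. They spanned more than 3 orders of magnitude. Syt13, a synaptotagmin that does not bind calcium, had the highest mean over the 22 mice with 675 TPM, followed by Ptprn, a granule membrane protein, with 483 TPM. Cplx2, a complexin, had 238 TPM, the granule SNARE gene Vamp2 had 208 TPM, Sytl4, which encodes the docking protein granuphilin, had 190 TPM, and Napa, which encodes alpha-SNAP, had 166 TPM. At the other end, Cplx1 had 2.57 TPM and Rims1 had 0.19 TPM. A filter kept genes with at least 1 TPM in at least 5 samples. It kept 35 of the 36 genes, and 34 were at or above 1 TPM in all 22 mice. Rims1 failed it, with group means of 0.101 TPM and 0.176 TPM in WT and Het mice on C57, and 0.107 TPM and 0.347 TPM on Mixed, and was not tested. Where 4 values follow each other they are in the order C57 WT and Het, then Mixed WT and Het, called the group order from here on.

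**Figure D1:**
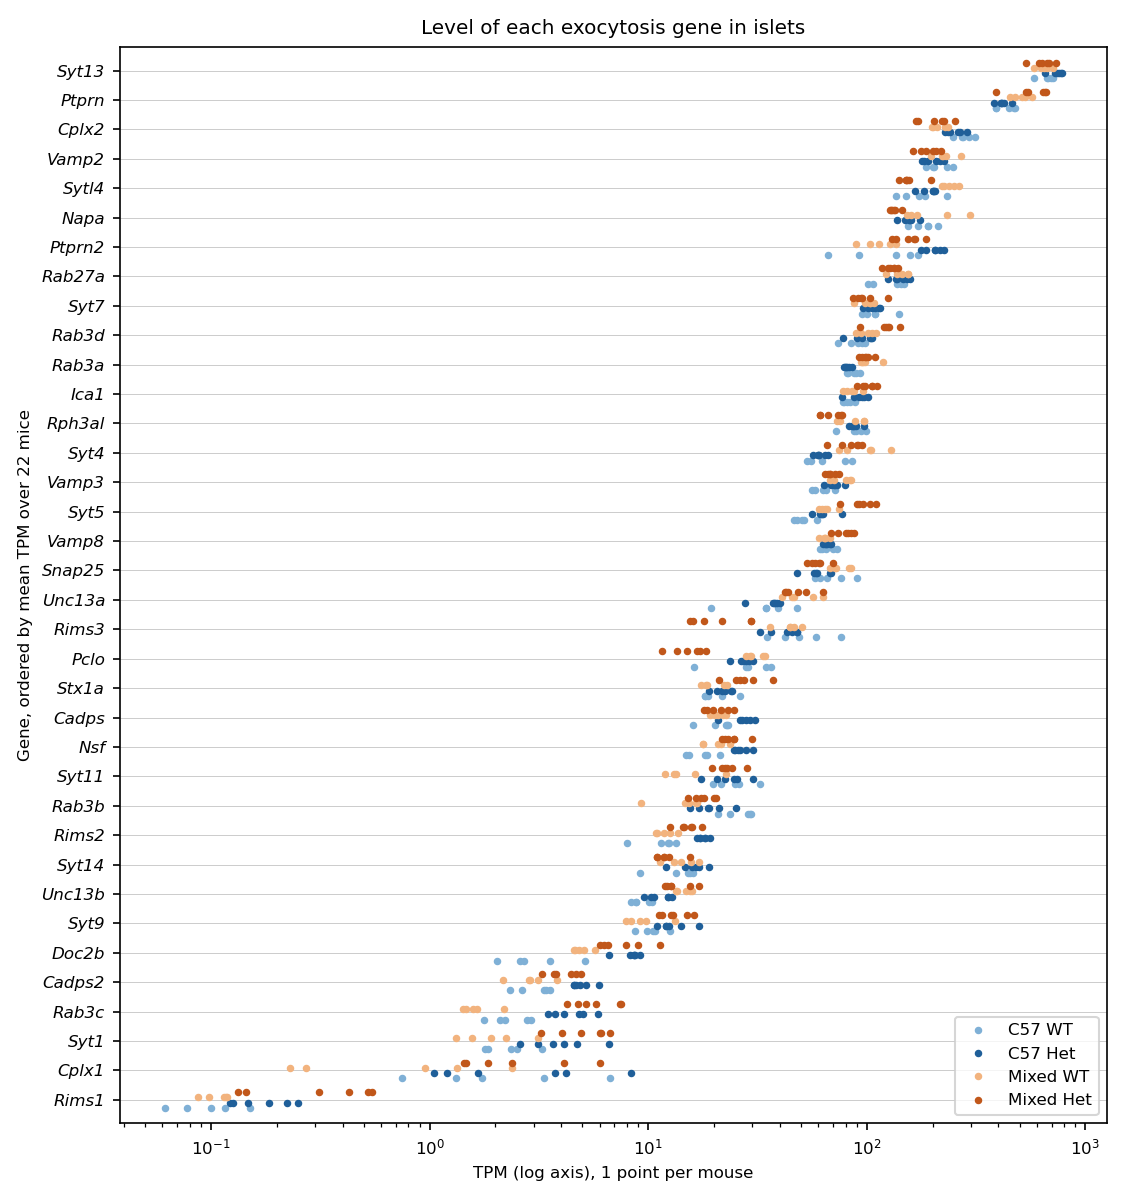
TPM of each of the 36 genes (rows, ordered by mean over 22 mice) on a log axis, with 1 point per mouse coloured by group. Syt13 is highest with a mean of 675 TPM and Rims1 lowest with 0.19 TPM, and for most genes the 4 groups overlap.

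MAF proteins bind DNA through a core of the letters TGCTGA. The 250 bases before the annotated start were taken from RefSeq promoter entries (build GRCm38.p6), which held 32 windows for 27 of the 36 genes. TGCTGA on either strand was in 3 of these 32 windows (9.38%), those of Napa, Ptprn2 and Rph3al, and in 16.1% of 32851 windows of the same length from all genes. The longer TGCTGAC, which contains the core, was in 0 of the members' windows and in 3.81% of all, and TGCTGAG was in 2 (6.25%, Napa and Rph3al) and in 6.21% of all. A match is a description of letters and not a binding site, and no match says only that the letters are not in these 250 bases. The windows with the core are shown, together with those of Pclo and Sytl4, the genes with the most negative differences among the called interactions below. Each is written 5′ to 3′ on the gene's strand, and capitals mark TGCTGA or its reverse complement TCAGCA. They lie at chr7:16098330-16098579 on the plus strand (Napa), chr12:116485470-116485719 on the plus strand (Ptprn2), chr11:75925892-75926141 on the minus strand (Rph3al), chr5:14514668-14514917 on the plus strand (Pclo) and chrX:133981813-133982062 on the minus strand (Sytl4).
Napa: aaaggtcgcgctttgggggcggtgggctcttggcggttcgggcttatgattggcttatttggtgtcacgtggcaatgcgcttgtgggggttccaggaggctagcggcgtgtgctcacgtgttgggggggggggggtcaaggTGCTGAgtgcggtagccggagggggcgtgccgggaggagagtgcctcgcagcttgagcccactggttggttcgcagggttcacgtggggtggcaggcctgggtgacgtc
Ptprn2: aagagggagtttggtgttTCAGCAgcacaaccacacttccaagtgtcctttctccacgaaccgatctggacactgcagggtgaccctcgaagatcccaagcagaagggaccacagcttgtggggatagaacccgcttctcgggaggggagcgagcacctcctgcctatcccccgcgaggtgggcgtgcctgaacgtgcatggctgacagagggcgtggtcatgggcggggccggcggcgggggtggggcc
Rph3al: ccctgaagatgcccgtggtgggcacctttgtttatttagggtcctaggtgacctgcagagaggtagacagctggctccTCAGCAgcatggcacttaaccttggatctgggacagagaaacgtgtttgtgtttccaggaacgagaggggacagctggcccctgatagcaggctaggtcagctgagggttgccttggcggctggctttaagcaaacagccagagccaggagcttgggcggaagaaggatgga
Pclo: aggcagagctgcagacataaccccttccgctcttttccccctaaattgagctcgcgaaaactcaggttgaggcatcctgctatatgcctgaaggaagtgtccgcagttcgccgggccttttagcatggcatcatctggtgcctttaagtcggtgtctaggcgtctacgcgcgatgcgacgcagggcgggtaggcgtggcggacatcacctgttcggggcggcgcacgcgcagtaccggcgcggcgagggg
Sytl4: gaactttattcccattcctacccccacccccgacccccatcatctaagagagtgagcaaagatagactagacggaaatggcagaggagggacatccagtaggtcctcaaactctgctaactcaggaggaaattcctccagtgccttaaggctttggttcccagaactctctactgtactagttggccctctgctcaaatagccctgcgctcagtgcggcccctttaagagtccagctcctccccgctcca

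The labels were checked on the targeted gene. Mafa RNA was 441 ± 87.6 TPM (SD, n = 5) in C57 WT against 117 ± 23.2 TPM (n = 6) in C57 Het mice, 26.5% of the WT mean. It was 598 ± 143 TPM (n = 5) in Mixed WT against 152 ± 37.1 TPM (n = 6) in Mixed Het mice, 25.4% of the WT mean, and the genotypes did not overlap on either background. Markers of islet cell types moved with genotype. The summed level of 6 alpha cell markers was 19100 to 57500 TPM in C57 WT against 71500 to 118000 TPM in C57 Het mice, and 15900 to 27600 TPM in Mixed WT against 65500 to 107000 TPM in Mixed Het mice, with 6 of 6 higher in Het on each background. The 6 beta cell markers summed to 368000 to 448000, 322000 to 376000, 398000 to 475000 and 248000 to 340000 TPM in the group order, with 1 of 6 lower in C57 Het and 4 of 6 lower in Mixed Het. Of 5 delta and PP cell markers, 3 were higher in C57 Het (sum 29700 to 51300 TPM against 23900 to 34300 TPM in WT) and 4 in Mixed Het, where their sum was 46600 to 89900 TPM against 21800 to 48300 TPM in Mixed WT. Non-endocrine markers moved as well. Of 9 acinar markers tested, 8 were higher in C57 Het (sum 255 to 1590 TPM against 202 to 382 TPM in WT) and 2 in Mixed Het (609 to 1170 TPM against 174 to 828 TPM). Of 5 ductal markers tested, 3 were higher in C57 Het (sum 170 to 284 TPM against 130 to 148 TPM) and 5 in Mixed Het (180 to 552 TPM against 115 to 167 TPM). The 5 leukocyte markers tested were all higher in Mixed Het (162 to 333 TPM against 109 to 157 TPM), none of them in C57 Het, and 4 of 5 mesenchymal markers tested were higher in Mixed Het (56.9 to 347 TPM against 30.6 to 59.8 TPM). Of 5 endothelial markers, 2 were lower in C57 Het (sum 307 to 397 TPM against 384 to 856 TPM) and 1 in Mixed Het (326 to 599 TPM against 379 to 473 TPM). Of 8 neural and Schwann cell markers, 1 was higher and 1 lower in C57 Het, where their sum did not overlap (36 to 48.1 TPM against 87.9 to 108 TPM in WT), and 4 were higher and 1 lower in Mixed Het (43.1 to 70 TPM against 52.8 to 97.9 TPM). No marker was at 0 throughout. In whole islets, fewer cells of a type and less RNA per cell cannot be told apart, and the part of these markers in the results below was not tested, beyond a fit that takes the acinar score as covariate. The share of TPM on mitochondrial genes was 4.27% to 9.76%, 3.86% to 4.39%, 4.37% to 9.76% and 2.80% to 4.06% in the group order. The labels' library numbers run through the groups in turn, so library order and group cannot be told apart.

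On the C57 background, RNA of the exocytosis genes was mostly higher in Het islets where it differed, as it was over all genes. limma was fitted across all 16756 genes that passed the filter, on log2(TPM + 1), and genes with a Benjamini-Hochberg adjusted p under 0.05 were called. Of the 35 exocytosis genes tested, 11 were called (31.4%), beside 38% of all genes (26.4% higher and 11.6% lower). The 10 higher genes were Unc13b, Cadps, Cadps2, Rims2, Rab3c, Syt1, Syt5, Doc2b, Nsf and Ptprn2, and the 1 lower gene was Rab3b. The median log2 difference over the 35 was 0.15, beside 0.08 over all genes. The values of Het and WT mice did not overlap for 6 of the 35 genes (17.1%), all higher in Het, beside 21% of all genes (15.9% higher and 5.04% lower). The share of calls was thus below the background of the whole table.

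On the Mixed background more of the genes were called, and in both directions. Of the 35, 21 were called (60%), beside 44.1% of all genes. The 14 higher genes were Stx1a, Vamp8, Cadps2, Rims2, Rab3c, Rab3d, Syt1, Syt5, Syt9, Syt11, Doc2b, Nsf, Ptprn2 and Ica1, and the 7 lower genes were Snap25, Vamp2, Napa, Rims3, Pclo, Rph3al and Sytl4. Called lower were 7 of 35, where 13.5% of all genes were, and called higher were 14, where 30.7% of all genes were. The median log2 difference over the 35 was -0.0036, beside 0.10 over all genes. For 9 genes (25.7%) the genotypes did not overlap, beside 23.6% of all genes, 5 of them higher in Het (17.9% of all genes) and 4 lower (5.76%).

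The split by direction depended on how libraries were scaled. TPM sets each library to the same total, and the genes with over 1% of a library, among them the insulin genes, take part in that total. Median-of-ratios scaling moved the median log2 difference over all genes from 0.10 to -0.01 on the Mixed background and from 0.08 to 0.005 on C57. With it, 8 genes were called as higher in Het and 12 as lower on Mixed, in place of 14 and 7, and the share of all genes moved likewise to 21.4% higher and 22.4% lower. The split was 10 and 12 with quantile normalization (25.2% and 19.9% of all genes) and 8 and 12 with a total that left out the genes over 1% (21.8% and 20.8%). On C57 it was 8 and 4 with median-of-ratios scaling (21% and 18.3% of all genes) and with quantile normalization (22% and 17.2%), and 8 and 5 with the total without those genes (19.1% and 19%), in place of 10 and 1. No gene called under the deposited TPM was called in the opposite direction under another scaling.

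**Figure D2:**
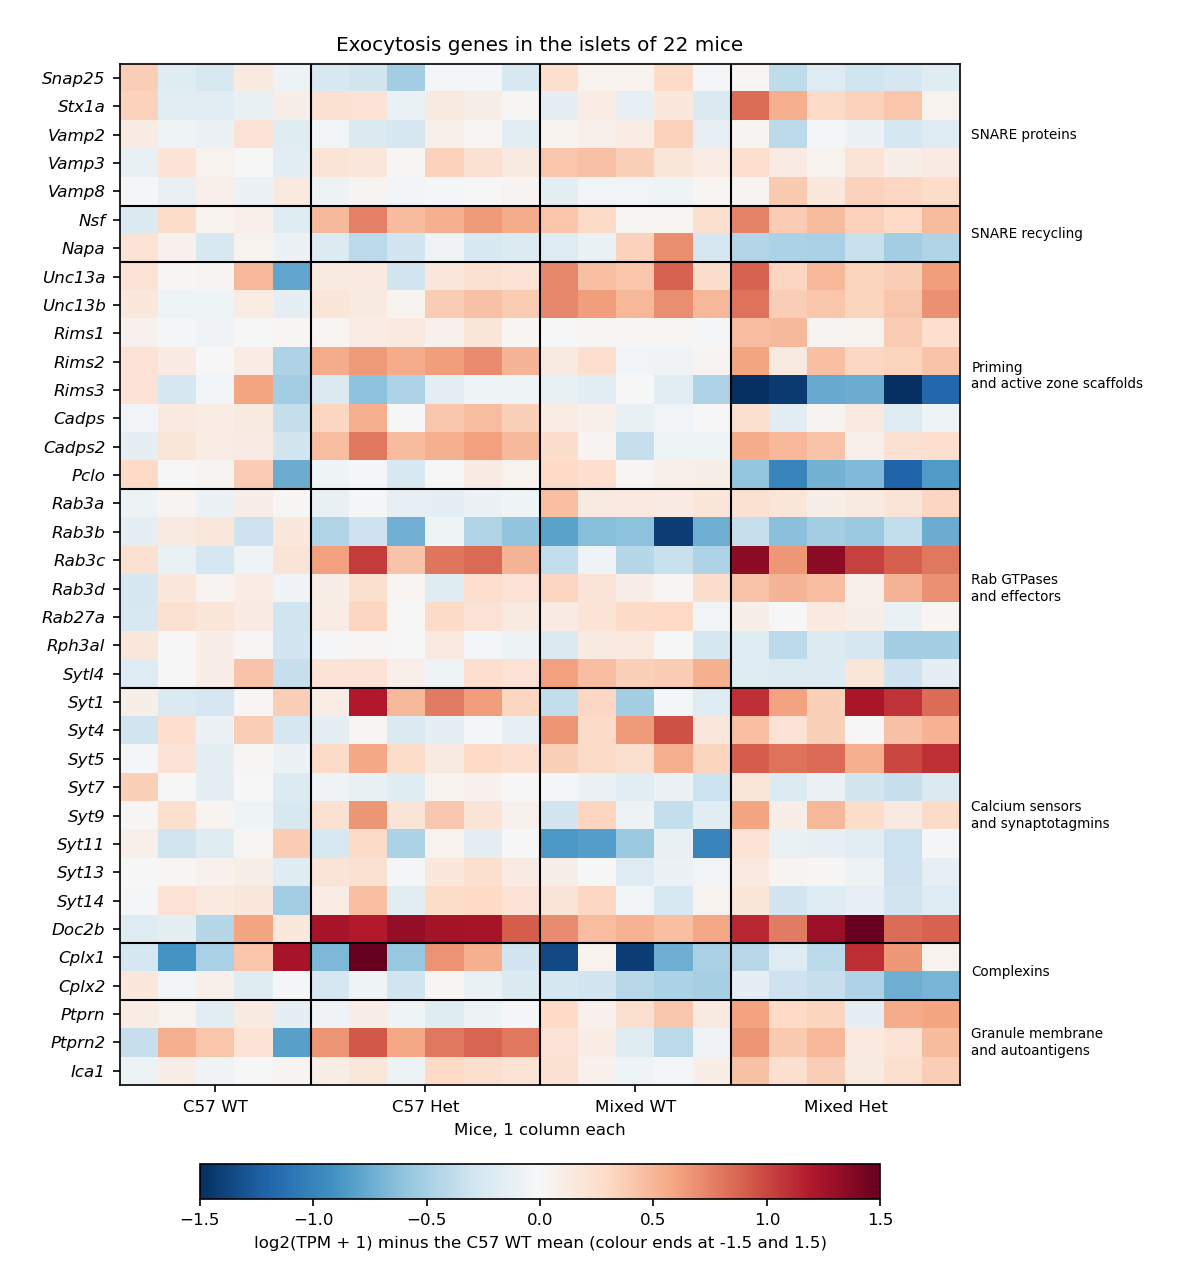
Each of the 36 genes (rows, by role) in each of 22 mice (columns, by group), coloured by log2(TPM + 1) minus the mean of C57 WT, with colours ending at -1.5 and 1.5. Doc2b and Rab3c are higher in Het columns of both backgrounds, and Rims3 and Pclo are lower in the Mixed Het columns.

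Called higher on both backgrounds were 8 of the 35 genes, namely Cadps2, Rims2, Rab3c, Syt1, Syt5, Doc2b, Nsf and Ptprn2, beside 16.9% of all genes. Called lower on both were 0, beside 5.48% of all genes. There were 3 genes called on C57 alone and 13 on Mixed alone, and 11 were called on neither. Over all genes more were called on Mixed as well (44.1%) than on C57 (38%). The share of all genes called on 1 background alone was not computed, so these counts are not read as a trait of the 35. A call on one background alone does not show a difference between backgrounds, which the interaction tests directly, as the Het-minus-WT difference on Mixed minus that on C57. It was called for 5 of the 35 genes (14.3%), beside 7.36% of all genes. These were Pclo, Sytl4 and Vamp3, with a more negative difference on Mixed (2.74% of all genes), and Rab3b and Vamp8, with a more positive one (4.62%). Of the genes called on a single background, 2 of the 3 on C57 and 10 of the 13 on Mixed were not among them. Across the 35 genes the differences on both backgrounds had the same sign for 22 and opposite signs for 13 (Pearson r 0.56, Spearman rho 0.57, a description across genes, which are not independent and share libraries within each background).

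**Figure D3:**
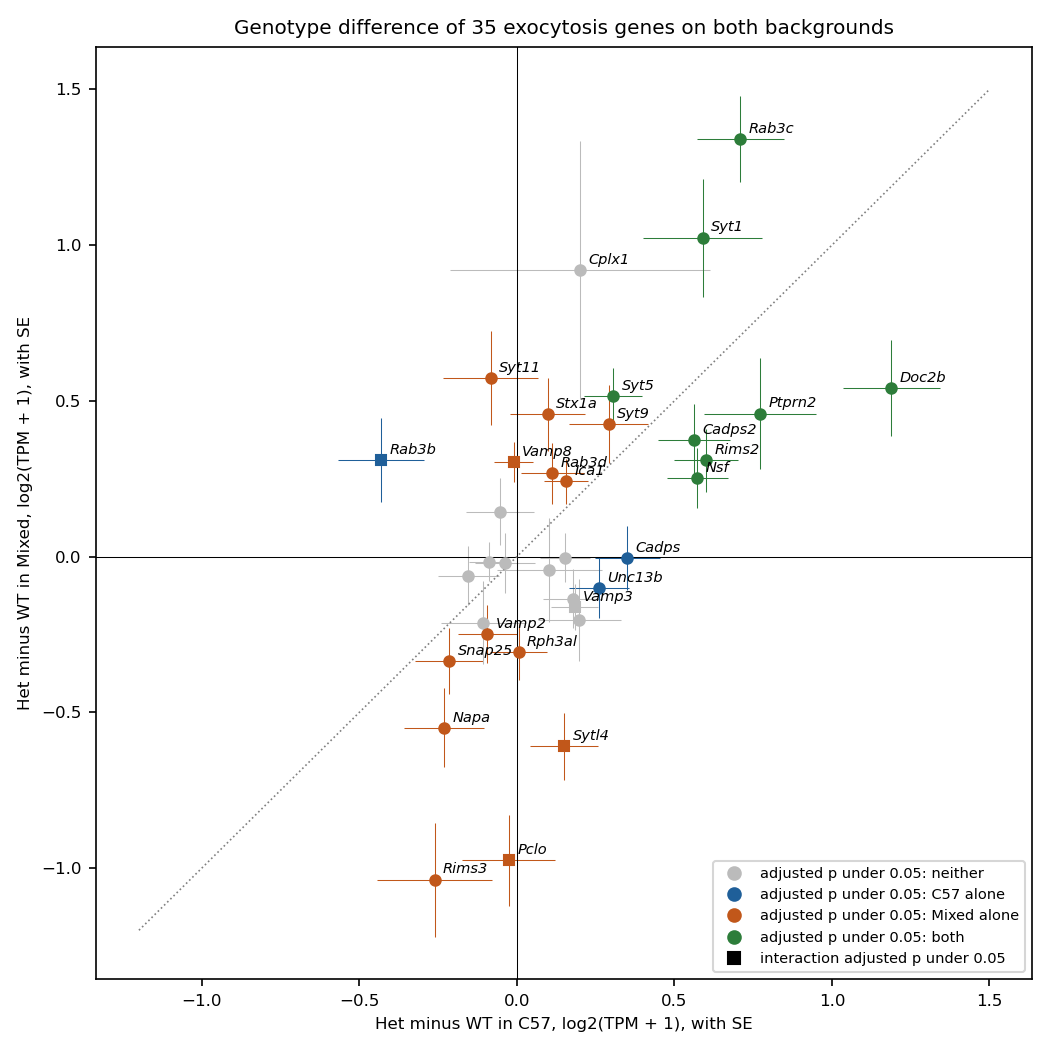
Het-minus-WT difference of the 35 tested genes in log2(TPM + 1) on C57 (x axis) and Mixed (y axis) with standard errors (SE), coloured by which comparison was called, squares marking a called interaction and the dotted line equal differences. Rab3c, Syt1 and Doc2b lie at the upper right, and Rims3, Pclo and Sytl4 lie low on the Mixed axis and near 0 or less far below it on C57.

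The counts by role from here on come from small groups. Beside them, 26.4% of all genes were higher and 11.6% lower on C57, and 30.7% higher and 13.5% lower on Mixed. With the acinar covariate the share of all genes called fell from 38% to 20.4% on C57 and from 44.1% to 32.1% on Mixed. With no filter it was 16.4% and 21.8% of the 37378 genes then tested. A call lost in either setting is therefore not read as a trait of its gene. The SNARE proteins form the fusion complex itself. Of the 5 genes, 0 were called on C57 (Snap25 was under other scalings), while on Mixed Stx1a and Vamp8 rose and Snap25 and Vamp2 fell, and Vamp3 was not called. Snap25 encodes the plasma membrane SNARE partner of syntaxin 1A. It was 89.9, 60.9, 58.3, 75.9 and 65.7 TPM in the C57 WT mice and 47.9 to 68.6 TPM (median 58.8) in C57 Het. The Mixed WT mice had 82.6, 71.5, 72.1, 84.6 and 68.0 TPM, and the Mixed Het mice 53.1 to 70.3 TPM (median 59.1). On Mixed, only the highest Het mouse reached into the WT range, and on C57 the genotypes overlapped widely. The log2 difference was -0.34 (SE 0.11, limma adjusted p = 0.014) on Mixed and -0.22 (SE 0.11, limma adjusted p = 0.12) on C57. Under 3 other scalings the C57 difference was called too, at -0.31 (median-of-ratios), -0.32 (quantile) and -0.33 (total without genes over 1%).

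Stx1a encodes syntaxin 1A, the other plasma membrane SNARE. It was 26.2, 18.2, 18.2, 18.8 and 21.8 TPM in C57 WT against 19.0 to 24.2 TPM (median 22.2) in C57 Het mice. In Mixed WT mice it was 18.4, 22.2, 18.6, 22.8 and 17.5 TPM, and in Mixed Het mice 21.2 to 37.4 TPM (median 26.9). The Mixed Het mice were higher, with 1 of them inside the WT range. Stx1a rose by 0.46 on the log2 scale there (SE 0.12, limma adjusted p = 0.0036), and the C57 difference was 0.10 (SE 0.12, limma adjusted p = 0.55).

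Vamp2 encodes the main granule SNARE. Its levels were 232, 204, 200, 248 and 187 TPM in C57 WT against 179 to 224 TPM (median 199) in C57 Het mice, and 221, 224, 231, 270 and 196 TPM in Mixed WT against 162 to 219 TPM (median 193) in Mixed Het mice. The groups overlapped on both backgrounds. The log2 difference was -0.25 on Mixed (SE 0.09, limma adjusted p = 0.035) and -0.09 on C57 (SE 0.09, limma adjusted p = 0.45). The Mixed call was lost without Mixed WT mouse 2, 3 or 4 or Mixed Het mouse 2, 5 or 6 (limma adjusted p 0.051 to 0.12), with no filter (0.063), in a fit of the Mixed mice alone (0.053) and with the acinar covariate (0.13). With quantile normalization the difference was -0.41.

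Vamp3 encodes cellubrevin, a SNARE of endosomal and constitutive traffic. It was 57.7, 71.9, 64.9, 62.8 and 55.9 TPM in C57 WT against 63.4 to 79.6 TPM (median 71.0) in C57 Het mice. It was 83.8, 84.7, 80.2, 70.8 and 67.5 TPM in Mixed WT against 64.6 to 74.6 TPM (median 68.0) in Mixed Het mice. Het values lay in and above the upper part of the WT range on C57 and in and below its lower part on Mixed, with overlap on both. The interaction was -0.35 (SE 0.11, limma adjusted p = 0.048), while neither background's own difference was called (0.18 on C57 and -0.16 on Mixed, limma adjusted p = 0.056 and 0.083). Under 3 other scalings Vamp3 was called lower on Mixed, with differences of -0.25 to -0.29. The interaction call was kept without C57 WT mouse 2, C57 Het mouse 3, Mixed WT mouse 4 or 5 or Mixed Het mouse 1. It was lost without each of the other 17 libraries (limma adjusted p 0.051 to 0.091), with no filter (0.082), with the acinar covariate (0.061) and without the trend (0.064). Leaving out both C57 WT mouse 5 and Mixed WT mouse 4, the WT libraries of highest mitochondrial share, also lost it (0.074). Between backgrounds, Vamp3 was higher on Mixed in WT mice (log2 difference 0.30, SE 0.08, limma adjusted p = 0.014). That call was lost in a fit of the WT mice alone (0.11) and with the acinar covariate (0.060). In Het mice the difference was -0.04 (SE 0.07, limma adjusted p = 0.71).

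Vamp8, a SNARE implicated in the fusion of newly arrived granules, had similar means in C57 WT, C57 Het and Mixed WT and a higher one in Mixed Het. It was 65.3, 61.1, 70.2, 62.5 and 73.3 TPM in C57 WT against 63.0 to 68.4 TPM (median 65.6) in C57 Het mice. It was 60.5, 64.4, 64.3, 63.6 and 67.8 TPM in Mixed WT against 68.4 to 87.1 TPM (median 81.5) in Mixed Het mice, with no overlap. The log2 difference was 0.30 on Mixed (SE 0.06, limma adjusted p = 0.00055) and -0.01 on C57 (SE 0.06, limma adjusted p = 0.91). The interaction was 0.31 (SE 0.09, limma adjusted p = 0.036). On Mixed the difference was 0.17 with median-of-ratios scaling and 0.18 with the total without genes over 1%, and was not called under either (limma adjusted p = 0.14 and 0.063). The interaction was not called under those scalings or quantile normalization (limma adjusted p 0.070 to 0.16), with no filter (0.051) or without the trend (0.051). It was also not called without C57 WT 5 and Mixed WT 4 together (0.086), or without any of 12 libraries. These were C57 WT 3 and 5, C57 Het 1, 4 and 5, Mixed WT 1, 2 and 3, and Mixed Het 2, 4, 5 and 6 (limma adjusted p 0.052 to 0.066).

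The 3 Vamp genes together came to 343 ± 21.6, 337 ± 22.9, 370 ± 26.2 and 341 ± 17.8 TPM in the group order (SD, n = 5, 6, 5 and 6). Vamp2 made up 62.2%, 59.3%, 61.6% and 56.3% of that sum in the same order.

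SNARE complexes are taken apart after fusion by the ATPase NSF and its adaptor alpha-SNAP. On the deposited scale the genes moved in opposite directions on Mixed, which for Nsf did not hold as a call under other scalings. Nsf was 17.7 ± 2.63 TPM (SD, n = 5) in C57 WT against 26.6 ± 2.12 TPM (n = 6) in C57 Het mice, with no overlap (log2 difference 0.57, SE 0.10, limma adjusted p = 0.00014). On Mixed it was 20.4 ± 2.51 TPM (n = 5) and 24.5 ± 2.96 TPM (n = 6), a log2 difference of 0.25 (SE 0.10, limma adjusted p = 0.039). That call was lost under all 3 other scalings (differences 0.12 to 0.16), with no filter, in a fit of the Mixed mice alone, with the acinar covariate, with sample weights and without Mixed WT 3 or 4 or Mixed Het 1, 3 or 6 (limma adjusted p 0.058 to 0.11). Napa fell on Mixed, from 202 ± 61.9 TPM (n = 5) to 133 ± 6.14 TPM (n = 6), with no overlap (log2 difference -0.55, SE 0.13, limma adjusted p = 0.0015). The Mixed WT median was 170 TPM, and mouse 4, the Mixed WT library of highest mitochondrial share, had 297 TPM. Napa was called lower on Mixed without each library in turn (-0.64 to -0.40). On C57 it was 183 ± 21.4 TPM in WT against 156 ± 12.4 TPM in Het mice (log2 difference -0.23, SE 0.13, limma adjusted p = 0.16), and it was called there with the total without genes over 1% (-0.34, limma adjusted p = 0.035).

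Priming proteins make docked granules ready to fuse, and active zone scaffolds hold them near calcium channels. Of the 7 genes tested, 4 rose on C57 (Unc13b, Rims2, Cadps and Cadps2), and on Mixed 2 rose (Rims2 and Cadps2) and 2 fell (Rims3 and Pclo). Pclo encodes piccolo, a large scaffold that binds calcium channels and Rim2. It was 34.5, 28.0, 28.8, 36.6 and 16.2 TPM in C57 WT against 23.6 to 30.3 TPM (median 27.6) in C57 Het mice. The Mixed WT mice had 34.4, 33.4, 28.1, 29.3 and 29.6 TPM, and the Mixed Het mice 11.5 to 18.3 TPM (median 15.8). On Mixed the Het mice were all below the WT mice and at 49.7% of their mean. On C57 the Het values lay within the WT range, whose low end of 16.2 TPM was mouse 5 alone. That mouse is the C57 WT library of highest mitochondrial share, and the other C57 WT mice had 28.0 to 36.6 TPM. The log2 difference was -0.98 on Mixed (SE 0.15, limma adjusted p = 1.93e-05) and -0.03 on C57 (SE 0.15, limma adjusted p = 0.91), and the interaction was -0.95 (SE 0.21, limma adjusted p = 0.010). Without each library in turn, the C57 difference was -0.21 to 0.070, and the interaction was called each time (-1.05 to -0.77). Of the other alternatives, only the threshold of 0.01 lost the interaction call (limma adjusted p = 0.0103). The promoter window of Pclo, printed above, does not hold TGCTGA.

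Rims3 encodes a short Rim protein without the Rab3-binding part. It had the lowest difference of the 35 on Mixed, 44.4 ± 5.20 TPM (SD, n = 5) in WT against 21.7 ± 6.42 TPM (n = 6) in Het mice with no overlap (log2 difference -1.04, SE 0.18, limma adjusted p = 0.00011). On C57 it was 52.1 ± 16.1 TPM and 42.2 ± 6.5 TPM (log2 difference -0.26, SE 0.18, limma adjusted p = 0.27), and the interaction was -0.78 (SE 0.26, limma adjusted p = 0.068). Rims2, the full-length Rim of beta cells that binds Rab3 and the cAMP sensor Epac2, moved the other way. It rose from 11.5 ± 2.10 TPM to 17.8 ± 0.942 TPM on C57 with no overlap (log2 difference 0.60, SE 0.10, limma adjusted p = 0.00013). On Mixed it was 12.0 ± 1.17 TPM in WT against 15.1 ± 1.7 TPM in Het mice (log2 difference 0.31, SE 0.10, limma adjusted p = 0.017), which was not called with median-of-ratios scaling (0.061) or the total without genes over 1% (0.075). Of the summed Rims1, Rims2 and Rims3 TPM, Rims2 was 18.6% ± 3.17, 29.9% ± 3.59, 21.4% ± 2.72 and 41.5% ± 7.29 in the group order. The sum itself was 63.8 ± 17.4, 60.2 ± 6.61, 56.5 ± 5.21 and 37.2 ± 6.42 TPM in that order.

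The CAPS proteins prime dense-core granules. Cadps2 rose on both backgrounds, by 0.56 on C57 (SE 0.11, limma adjusted p = 0.00076), where it was 3.06 ± 0.530 TPM in WT against 4.97 ± 0.537 TPM in Het mice with no overlap. On Mixed it was 2.97 ± 0.602 TPM and 4.13 ± 0.650 TPM (log2 difference 0.37, SE 0.11, limma adjusted p = 0.012). Its more abundant relative Cadps was 21.0 ± 3.0 TPM in C57 WT against 27.1 ± 3.48 TPM in C57 Het mice (log2 difference 0.35, SE 0.10, limma adjusted p = 0.011), a call that was lost with the acinar covariate (0.11). Cadps was 21.0 TPM in both Mixed groups. Unc13b, a Munc13 priming factor, was 9.27 ± 0.908 TPM in C57 WT against 11.3 ± 1.36 TPM in C57 Het mice (log2 difference 0.26, SE 0.10, limma adjusted p = 0.037). That call was lost without C57 WT 2, 3 or 5 or C57 Het 4, 5 or 6 (limma adjusted p 0.067 to 0.094) under all 3 other scalings (0.050 to 0.12), with no filter (0.062) and with the acinar covariate (0.23), while on Mixed Unc13b was called lower under all 3 of them (limma adjusted p 0.011 to 0.032). Unc13a was not called on either background, with means of 35.2, 36.6, 50.5 and 48.9 TPM in the group order.

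Rab3 and Rab27a on the granule bind effectors that tether it to the plasma membrane. Of the 7 genes of this group, Rab3c rose and Rab3b fell on C57, and on Mixed Rab3c and Rab3d rose and Rph3al and Sytl4 fell. Sytl4 encodes granuphilin, which links Rab27a on the granule to syntaxin 1A and docks the granule. It was 151, 174, 186, 234 and 137 TPM in C57 WT against 166 to 206 TPM (median 201) in C57 Het mice. It was 265, 238, 221, 226 and 251 TPM in Mixed WT against 140 to 197 TPM (median 151) in Mixed Het mice. All 6 Mixed Het mice were below all 5 Mixed WT mice, at 65.6% of their mean, while the C57 Het mice lay inside the C57 WT range. The log2 difference was -0.61 on Mixed (SE 0.11, limma adjusted p = 0.00011) and 0.15 on C57 (SE 0.11, limma adjusted p = 0.28), and the interaction was -0.76 (SE 0.15, limma adjusted p = 0.0064). Sytl4 was the only one of the 5 interaction calls kept under each alternative, the 0.01 threshold included, and without each library. Its interaction was -0.87 to -0.67 without each library, with a largest limma adjusted p of 0.015 over all these fits. Between backgrounds, Sytl4 was higher on Mixed in WT mice (log2 difference 0.47, SE 0.11, limma adjusted p = 0.0091). That call was lost in a fit of the WT mice alone (0.067). In Het mice Sytl4 was lower on Mixed (-0.29, SE 0.10, limma adjusted p = 0.047), a call lost in 15 of the 22 fits without 1 library. The promoter window of Sytl4, also printed above, does not hold TGCTGA.

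For Rab3b the interaction had the opposite sign to that of Sytl4. It was 23.7, 28.8, 29.6, 20.9 and 29.3 TPM in C57 WT against 15.5 to 25.1 TPM (median 18.9) in C57 Het mice. It was 14.7, 16.5, 16.7, 9.26 and 15.4 TPM in Mixed WT against 15.2 to 20.3 TPM (median 17.8) in Mixed Het mice. The C57 WT mice stood above most of the others. Het minus WT was -0.43 in log2 on C57 (SE 0.14, limma adjusted p = 0.016) and 0.31 on Mixed (SE 0.14, limma adjusted p = 0.067), and the interaction was 0.74 (SE 0.19, limma adjusted p = 0.025). The interaction was 0.56 (limma adjusted p = 0.057) without C57 WT mouse 5 and Mixed WT mouse 4, the libraries of highest mitochondrial share, and was not called with no filter (0.052).

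Rab3c, a low-level Rab3 in these islets, had the largest rise of the 35 genes on Mixed. It was 2.90, 2.11, 1.77, 2.22 and 2.80 TPM in C57 WT against 3.47 to 5.86 TPM (median 4.46) in C57 Het mice. It was 1.58, 2.20, 1.47, 1.65 and 1.42 TPM in Mixed WT against 4.25 to 7.47 TPM (median 5.51) in Mixed Het mice. Het and WT mice did not overlap on either background, and Het means were 191% and 350% of the WT means. The log2 differences were 0.71 (SE 0.14, limma adjusted p = 0.00052) on C57 and 1.34 (SE 0.14, limma adjusted p = 1.65e-07) on Mixed. Both were kept in each alternative that tested the gene. With a mean of 3.73 TPM, Rab3c was not in the fit of genes with a mean of at least 5 TPM. Its interaction was 0.63 (SE 0.20, limma adjusted p = 0.052). As a share of the summed Rab3 genes, Rab3c was 1.17% ± 0.299, 2.23% ± 0.379, 0.772% ± 0.164 and 2.40% ± 0.617 in the group order. Rab3a and Rab3d made up most of the sum, 42.5% and 43.4% in C57 WT mice. Rab3d was 100.2 ± 8.57 TPM in Mixed WT against 121 ± 15.9 TPM in Mixed Het mice (log2 difference 0.27, SE 0.10, limma adjusted p = 0.033), a call lost under all 3 other scalings (differences 0.13 to 0.14), with no filter, with the acinar covariate, and without Mixed WT 3 or 4 or Mixed Het 2, 5 or 6 (limma adjusted p 0.058 to 0.093).

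Rph3al encodes Noc2, an effector of Rab3 and Rab27 required for normal secretion. It was 86.2 ± 11.5 TPM in Mixed WT against 69.3 ± 7.27 TPM in Mixed Het mice (log2 difference -0.31, SE 0.09, limma adjusted p = 0.0093), and 88.4 ± 10.2 and 88.3 ± 4.75 TPM in C57 WT and Het mice. The Mixed call was lost with the acinar covariate (limma adjusted p = 0.050). Rab27a was not called on either background, with means of 127, 143, 143 and 129 TPM in the group order, nor was Rab3a, with 86.6, 81.2, 101 and 99.1 TPM.

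**Figure D4:**
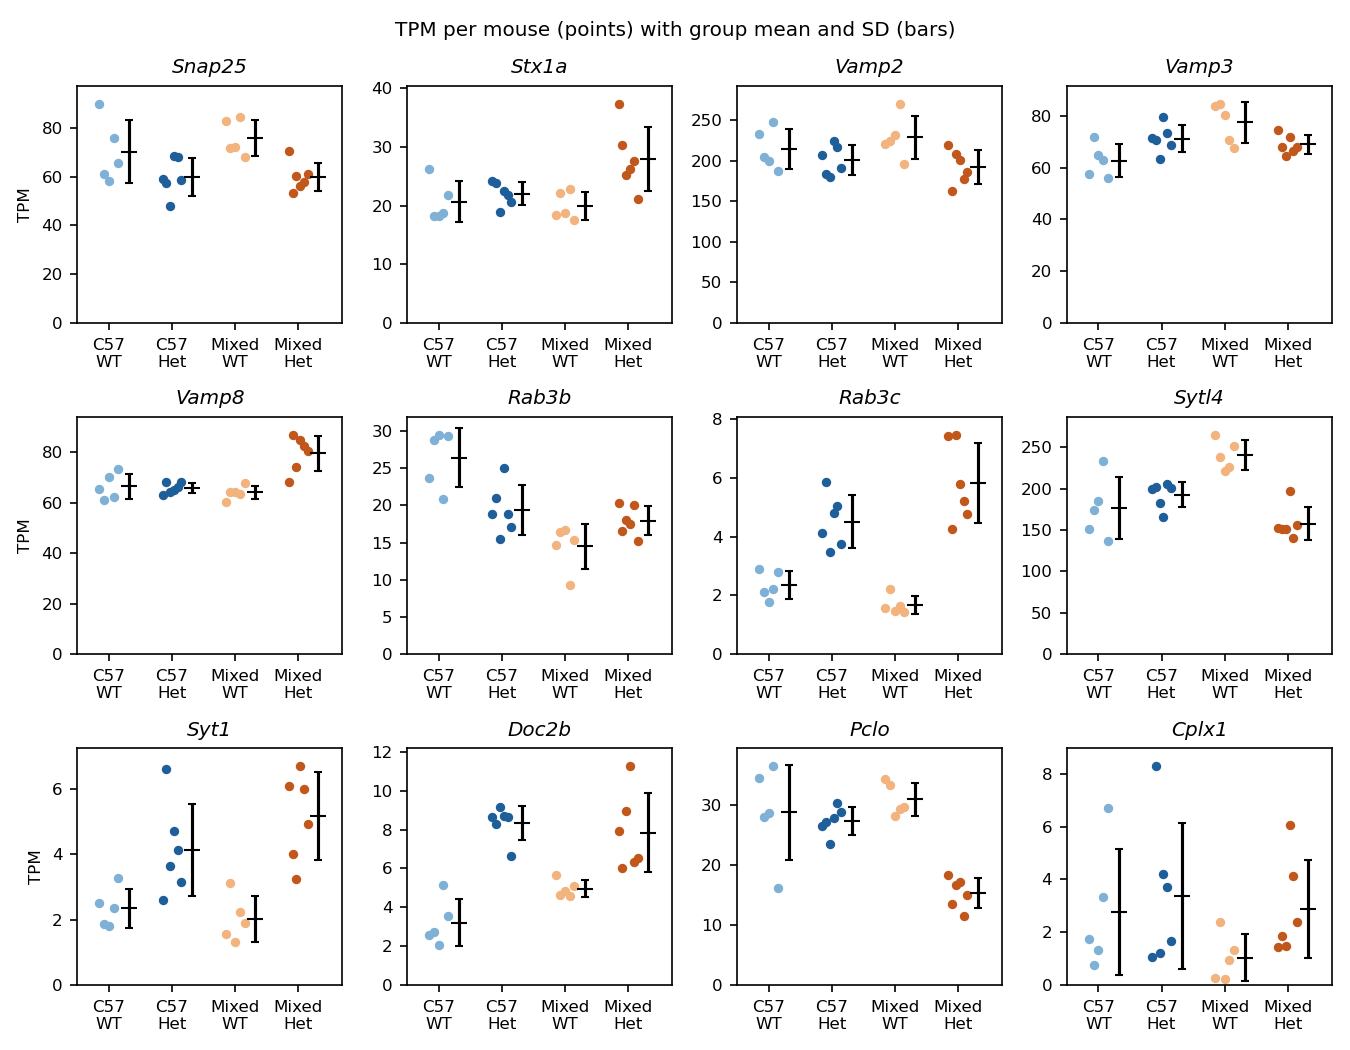
TPM in each mouse (points) with the group mean and SD (bars), on axes that start at 0, in the group order. Shown are the SNARE genes, the genes with a called interaction, Rab3c, Syt1, Doc2b and Cplx1. Rab3c, Syt1 and Doc2b are the genes called higher on both backgrounds with a log2 difference of at least 0.5 in each. Pclo and Sytl4 are lower in Mixed Het than in Mixed WT without overlap and overlap on C57, Rab3c does not overlap between genotypes on either background, and Cplx1 varies between mice in each group.

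Synaptotagmins and Doc2b form a group in which some members sense calcium and trigger fusion and others do not bind calcium. Of the 9 genes, 3 were called higher on C57 (Syt1, Syt5 and Doc2b), which is 33.3% beside 26.4% of all genes. On Mixed 5 were called higher (Syt1, Syt5, Syt9, Syt11 and Doc2b), which is 55.6% beside 30.7%. Called lower were 0 on either, beside 11.6% of all genes on C57 and 13.5% on Mixed. Doc2b encodes a high-affinity calcium sensor that binds SNARE proteins. It was 2.58, 2.71, 2.04, 5.14 and 3.56 TPM in C57 WT against 6.64 to 9.15 TPM (median 8.65) in C57 Het mice. It was 5.68, 4.61, 4.85, 4.59 and 5.09 TPM in Mixed WT against 6.01 to 11.3 TPM (median 7.24) in Mixed Het mice. No WT mouse reached the Het range on its background, and C57 Het mice had 260% and Mixed Het mice 158% of the WT mean. Doc2b had the largest rise on C57, 1.19 on the log2 scale (SE 0.15, limma adjusted p = 6.85e-06), and rose by 0.54 on Mixed (SE 0.15, limma adjusted p = 0.0070), with an interaction of -0.65 (SE 0.22, limma adjusted p = 0.070). Both calls were kept in each alternative.

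Syt1, the fast calcium sensor of synapses, was low in these islets. It was 2.51, 1.86, 1.79, 2.35 and 3.27 TPM in C57 WT against 2.59 to 6.61 TPM (median 3.89) in C57 Het mice. It was 1.56, 3.13, 1.32, 2.24 and 1.90 TPM in Mixed WT against 3.24 to 6.72 TPM (median 5.47) in Mixed Het mice. The groups overlapped on C57 and not on Mixed. In log2 the difference was 0.59 on C57 (SE 0.19, limma adjusted p = 0.018) and 1.02 on Mixed (SE 0.19, limma adjusted p = 0.00018). The C57 call was lost without C57 Het mouse 2, its highest (0.47, limma adjusted p = 0.051).

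Syt5, a sensor on secretory granules, was 51.2 ± 5.03 TPM in C57 WT against 63.5 ± 6.93 TPM in C57 Het mice (log2 difference 0.31, SE 0.09, limma adjusted p = 0.012), and 65.6 ± 5.60 and 94.6 ± 12.0 TPM in Mixed WT and Het mice with no overlap (0.52, SE 0.09, limma adjusted p = 0.00011). The C57 difference was 0.20 to 0.21 and not called under all 3 other scalings (limma adjusted p 0.084 to 0.087). Syt9, another granule sensor of beta cells, was 9.70 ± 2.10 TPM in Mixed WT against 13.3 ± 1.97 TPM in Mixed Het mice (0.43, SE 0.13, limma adjusted p = 0.0090), a call lost with sample weights (0.064). Syt11, which does not bind calcium, was 15.5 ± 4.38 TPM in Mixed WT against 23.2 ± 2.99 TPM in Mixed Het mice (0.57, SE 0.15, limma adjusted p = 0.0042), beside 25.0 ± 4.88 and 23.5 ± 4.40 TPM in C57 WT and Het mice. The interaction for Syt11 was 0.66 (SE 0.21, limma adjusted p = 0.062). Syt13, Syt7, Syt4 and Syt14 were called on neither background. Syt13 averaged 665, 739, 644 and 644 TPM in the group order and made up 70.3%, 71.9%, 67.8% and 66.0% of the summed Syt genes. Syt7, the high-affinity sensor with a known part in insulin release, averaged 111, 107, 100.1 and 99.1 TPM in that order.

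Complexins bind assembled SNAREs and hold or promote fusion, and neither of the genes was called for genotype. Cplx2 made up 99.01%, 98.7%, 99.5% and 98.6% of the summed complexin TPM in the group order. Cplx1 varied widely between mice of a group, from 0.748 to 6.70, 1.05 to 8.31, 0.231 to 2.38 and 1.44 to 6.05 TPM in the group order. Its log2 difference on Mixed was 0.92 (SE 0.41, limma adjusted p = 0.075).

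Of 3 granule membrane proteins and islet autoantigens, Ptprn2 rose on C57, and Ptprn2 and Ica1 on Mixed. Ptprn2 encodes phogrin, a granule membrane protein like its relative IA-2, the product of Ptprn. It was 125 ± 44.3 TPM in C57 WT against 203 ± 18.3 TPM in C57 Het mice with no overlap (log2 difference 0.77, SE 0.18, limma adjusted p = 0.0020), and 114 ± 19.0 and 157 ± 21.1 TPM in Mixed WT and Het mice (0.46, SE 0.18, limma adjusted p = 0.041). The Mixed call was lost under all 3 other scalings (differences 0.31 to 0.34), with no filter, with the acinar covariate, and without Mixed WT 3, 4 or 5 or Mixed Het 1, 2, 3 or 6 (limma adjusted p 0.058 to 0.12). Ica1, which encodes the autoantigen ICA69, was 85.7 ± 6.83 TPM in Mixed WT against 101 ± 7.78 TPM in Mixed Het mice (0.24, SE 0.07, limma adjusted p = 0.0090), a call lost under all 3 other scalings (differences 0.11 to 0.12) and with the acinar covariate (0.10). Ptprn was not called for genotype, with means of 435, 418, 508 and 569 TPM.

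The backgrounds were also compared within a genotype. These comparisons share libraries with those of genotype, so their values are given side by side. In WT mice 11 of the 35 genes were called (31.4%), 8 higher and 3 lower on Mixed, beside 11.3% of all genes (6.3% higher and 4.99% lower), and 5 did not overlap (14.3%), beside 6.12%. In Het mice 12 were called (34.3%), 6 higher and 6 lower on Mixed, beside 20.5% of all genes (13.3% higher and 7.13% lower), and 6 did not overlap (17.1%), beside 9.85%. In WT mice Rab3b was 26.5 ± 3.91 TPM on C57 and 14.5 ± 3.04 TPM on Mixed with no overlap (log2 difference -0.84, SE 0.14, limma adjusted p = 0.00050), and Unc13b was 9.27 ± 0.908 and 14.6 ± 1.13 TPM with no overlap (0.61, SE 0.10, limma adjusted p = 0.00041). In Het mice Rims3 (-0.96, SE 0.17, limma adjusted p = 0.00056) and Pclo (-0.80, SE 0.14, limma adjusted p = 0.00038) were lower on Mixed with no overlap. Syt5 was higher on Mixed in WT mice (0.35, SE 0.10, limma adjusted p = 0.018) and in Het mice (0.56, SE 0.09, limma adjusted p = 0.00013), and the WT call was lost without C57 WT 3 (0.053) or Mixed WT 4 (0.054). Without C57 WT mouse 3 the number called in WT mice was 7 (8.63% of all genes), and without C57 WT mouse 5 and Mixed WT mouse 4 together it was also 7 (7.42%). In a fit of the WT mice alone it was 4, where 4.96% of all genes were called, and in a fit of the Het mice alone 18 were called in Het mice, where 25.1% of all genes were.

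Another 86 genes of regulated exocytosis outside the 36 were listed by role. The table held 85 of them, Vamp7 was not analysed here, and 75 passed the filter. On C57, 48 of the 75 were called (64%), beside 38% of all genes, 37 higher (26.4% of all genes) and 11 lower (11.6%), with a median log2 difference of 0.28. On Mixed, 36 were called (48%), beside 44.1% of all genes, 30 higher (30.7% of all genes) and 6 lower (13.5%), with a median of 0.17. With median-of-ratios scaling the split was 33 higher and 16 lower on C57, where 21% and 18.3% of all genes were, and 19 higher and 20 lower on Mixed, where 21.4% and 22.4% of all genes were. Called on both backgrounds were 24 higher and 5 lower, beside 16.9% and 5.48% of all genes. Of 9 tested subunits of the exocyst, the complex that tethers vesicles before SNARE assembly, 7 were higher on C57, beside 26.4% of all genes. On Mixed 6 were higher, beside 30.7%, and 0 of the 9 were lower on either background, beside 11.6% and 13.5%. This subset was not set in advance, and the related gene Exoc3l, also on the list, was not counted in it. Exoc3l was called lower on C57 (-0.60, SE 0.18, limma adjusted p = 0.011) and was not called on Mixed (0.04, SE 0.18, limma adjusted p = 0.89). Tspan7, a tetraspanin that is an islet autoantigen, rose by 1.13 on C57 (SE 0.10, limma adjusted p = 5.57e-08) and 1.25 on Mixed (SE 0.10, limma adjusted p = 5.93e-09). Mlph, the Rab27 effector melanophilin, fell by 1.498 on C57 (SE 0.16, limma adjusted p = 6.18e-07) and 1.77 on Mixed (SE 0.16, limma adjusted p = 3.15e-08). Syt2 fell by 0.92 and 1.14 (SE 0.12 in both), and Esyt1, an extended synaptotagmin of membrane contact sites, fell by 0.62 and 1.09 (SE 0.13 in both), all called by limma. The interaction was called for 3 of the 75 genes (4%), beside 7.36% of all genes, named after their values were seen, namely Exph5 (-0.84, limma adjusted p = 0.025), Rapgef4 (-0.37, limma adjusted p = 0.043) and Stx4a (0.41, limma adjusted p = 0.044). Exph5 encodes an effector of Rab27, and Rapgef4 encodes the cAMP sensor Epac2.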

How the data were processed

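The authors deposited 1 table of TPM with a column for each of 22 libraries, each column summing to 1000000. Per the labels' protocols, poly(A) RNA was sequenced as paired ends. The submitters' processing notes name STAR 2.7.10b, MultiQC 1.7 and build mm39, while the counter and annotation are not given in the sources used here. Depth cannot be read from TPM and is unknown here. Column names were matched to the labels, which give no replicate numbers, and mice were numbered in accession order.

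limma 3.58.1 (R 4.3.3) fitted 4 group means with a trended prior on log2(TPM + 1), which understates changes of low genes, for the 16756 genes that reached 1 TPM in 5 or more samples. Benjamini-Hochberg adjustment covered all of them, with a threshold of 0.05. The fit was tested on simulated data. The members and lists were chosen with earlier results of these data known. Values per mouse are given for genes called in the interaction, genes called on both backgrounds with a difference of at least 0.5 in each, and Snap25, Stx1a and Vamp2. Of the other exocytosis genes, those called on both backgrounds with a difference of at least 1 in either are named, and 1 gene of that list is not reported here.

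The alternatives were a pseudocount of 0.1, no filter, a mean of at least 5 TPM, 3 other scalings (median-of-ratios, quantile, and a total without the 13 genes over 1% of a library), the contrast's samples alone, an acinar score as covariate, no trend, sample weights, a threshold of 0.01 and leaving out each library. Leaving out both WT libraries of highest mitochondrial share was added after seeing the data. Promoter windows come from RefSeq on GRCm38.p6, another build than the table's, and were joined by symbol alone.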

Additional observations from a re-analysis of the deposited data

Results flagged for a closer look

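Group values of the 36 genes in TPM were checked for a mouse far from the others of its group, by the gap to its nearest neighbour against the range of the group. Of 144 group values checked, 9 passed the 95% limit, where chance alone passes about 1 in 20. In C57 Het, Unc13a was 27.62 TPM in mouse 3, below the other 5, Syt5 was 76.71 TPM in mouse 2, above the others, and Doc2b was 6.642 TPM in mouse 6, below the others. In Mixed WT, Rab3a was 119 TPM in mouse 1 and Rab3c 2.199 TPM in mouse 2, both above the others, and Rab3b was 9.263 TPM in mouse 4, below the others. In Mixed Het, Sytl4 was 197.3 TPM in mouse 4, and Syt14 at 15.53 TPM and Nsf at 30 TPM were high in mouse 1. The Mixed WT mouse with low Rab3b is also the Mixed WT library of highest mitochondrial share.

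The interaction in limma was called for 5 of the 35 genes (14.3%), beside 7.36% of all genes. Its value in log2 was -0.7599 for Sytl4, 0.7418 for Rab3b, -0.3452 for Vamp3, -0.9504 for Pclo and 0.3139 for Vamp8. Of the 22 fits without 1 library, the Vamp3 call was lost in 17 and the Vamp8 call in 12. The Rab3b, Vamp3 and Vamp8 calls were lost without both WT libraries of highest mitochondrial share (limma adjusted p = 0.057, 0.074 and 0.086). In that fit the interaction was called for 4.26% of all genes. The Sytl4 interaction was as large without Mixed Het mouse 4, the mouse with high Sytl4.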

How the results depend on the processing

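Over the 5 comparisons there were 60 calls of exocytosis genes, of which 24 were kept under every alternative run and 46 without each library in turn. Of the 32 calls for genotype, 16 were kept under every alternative. No called difference changed sign. At an adjusted p of 0.01, the calls were 6 for genotype on C57 (23.9% of all genes), 1 for the interaction (1.46%), 4 for background in WT mice (4.84%) and 7 for background in Het mice (10.5%). For genotype on Mixed, that threshold lost the calls of Snap25, Vamp2, Nsf, Rims2, Cadps2, Rab3d and Ptprn2, and 30.4% of all genes were called. The interaction was called for 2 genes with no filter (1.91% of all genes), 8 with median-of-ratios scaling (10.6%), 11 with sample weights (15.7%) and 3 without both WT libraries of highest mitochondrial share (4.26%), and for 3 to 7 without each library in turn (4.6% to 10.6%), beside 5 (7.36%). The count of 3 came without C57 WT 5, C57 Het 1, 4 or 5, Mixed WT 1 or 3, or Mixed Het 5. Of the other exocytosis genes, 5 had an interaction with median-of-ratios scaling. In WT mice, background was called for 4 genes in a fit of those mice alone (4.96% of all genes), for 7 without both libraries of highest mitochondrial share (7.42%), and for 7 to 11 without each library in turn (8.41% to 14.2%). In Het mice it was called for 21 genes with sample weights (39.2%). An interaction fit on the samples of the contrast alone has no value of its own, since it needs all groups.

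Differences that were not called changed sign in some settings. On C57, Syt11 was 0.050 with sample weights, 0.013 without both WT libraries of highest mitochondrial share, and -0.16 to 0.013 without each library in turn. Stx1a on C57 was -0.029 with quantile normalization and -0.011 with the total without genes over 1%. Vamp8 on C57 was 0.025 without both those WT libraries and -0.039 to 0.025 without each library. Rph3al on C57 was -0.0879 with median-of-ratios scaling, -0.11 with quantile normalization, -0.11 with the total without genes over 1%, -0.062 with sample weights, -0.066 without both those WT libraries and -0.066 to 0.049 without each library. Leaving out each library, Cplx1 on C57 ranged from -0.064 to 0.51, Pclo on C57 from -0.21 to 0.070 and Cadps on Mixed from -0.0516 to 0.035. The cause was not tested.

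No paired analysis was possible because the labels give the groups no shared replicate numbers. Depth per library is unknown, so the precision of low genes such as Cplx1 and Rims1 is known only from the spread between mice.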
